A study of Homo sapiens with 2 samples.

Results

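The nuclear genes for the subunits of the mitochondrial respiratory chain were compared between A549 cells treated with TGF-β and control A549 cells. Genes were taken by symbol: those that start with NDUFA, NDUFB, NDUFC, NDUFS, NDUFV, UQCR, COX4I, COX5, COX6, COX7, COX8 or ATP5, together with SDHA, SDHB, SDHC, SDHD and CYC1. This gave 91 genes with 174 probe sets, out of 19775 genes and 41091 probe sets that carried 1 gene symbol. Of the 91 genes, 70 encode subunits of complexes I to V. The symbol rule also took 6 tissue or condition isoforms of complex IV subunits, 8 assembly factors of complex I, the inhibitor ATP5IF1, the supercomplex factor COX7A2L, 3 noncoding transcripts and 2 pseudogenes. SDHB, UQCRFS1 and NDUFA4 were not analysed here.

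A549 is a line of human lung carcinoma cells with epithelial features. The treated cells were kept for 12 h with TGF-β at 1 ng/ml and the control cells without it, and total RNA of each was measured on 1 Affymetrix array. With 1 array per condition no difference has a replicate check, so no test was made and every fold change is a description of these 2 arrays. The unit is the MAS5 signal, a linear intensity per probe set that the authors deposited with both arrays scaled to the same trimmed mean, and each gene was represented by its brightest probe set. A log2 ratio is that of the TGF-β signal over the control signal. RNA of whole cultures cannot tell fewer expressing cells from less RNA per cell.

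The respiratory chain sits in the inner mitochondrial membrane. Complex I takes electrons from NADH and complex II from succinate, ubiquinone carries them to complex III, and cytochrome c carries them on to complex IV, which reduces oxygen. Complexes I, III and IV pump protons, and complex V, the ATP synthase, uses the returning protons to make ATP. Except for complex II, each complex joins subunits encoded in the nucleus, which are the genes described here, to subunits encoded in mitochondrial DNA.

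On the TGF-β array the known TGF-β responders were higher. PMEPA1, which feeds back on Smad signaling, had a signal of 19834 with TGF-β and 5227 in the control. SKIL, a Smad corepressor, had 10443 and SMAD7, an inhibitory Smad, 1620 with TGF-β, against 3841 and 786 in the control. Of 5 epithelial markers, 5 were above background on both arrays, but they did not move together. KRT8 and KRT18, which make up most of their summed signal of 61332 with TGF-β and 56247 in the control, were higher with TGF-β, whereas KRT19, EPCAM and CDH1 were lower, CDH1 with 846 with TGF-β and 1952 in the control. Of 6 fibroblast markers, 0 were above background on both arrays, with a sum of 147 with TGF-β and 188 in the control. Of 4 endothelial markers, PECAM1 alone was, with a sum of 117 with TGF-β and 85.1 in the control. Of 3 measured immune markers, CD14 and CD3E were and PTPRC was not, with a sum of 159 with TGF-β and 261 in the control. The part of these markers in the ratios was not tested. Of 5 measured alveolar markers, SFTPB, SFTPC and ABCA3 were above background on both arrays and NKX2-1 and SFTPD on neither, with a sum of 399 with TGF-β and 383 in the control.

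Of the 70 subunit genes, 69 reached the filter of a mean signal of 48.7, and their signals differed little between the arrays. The median log2 ratio of these 69 genes was 0.02, with a range of −0.30 to 0.28. The gene with the largest increase was 1.22-fold higher with TGF-β and the one with the largest decrease 1.23-fold lower. The 2 signals of 50 of the 69 genes were within 1.1-fold of each other. The typical size of a log2 ratio, its median without regard to sign, was 0.08 among subunits, against 0.23 among all 12375 genes that reached the filter and 0.15 among the 3094 brightest of these.

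**Figure D1:**
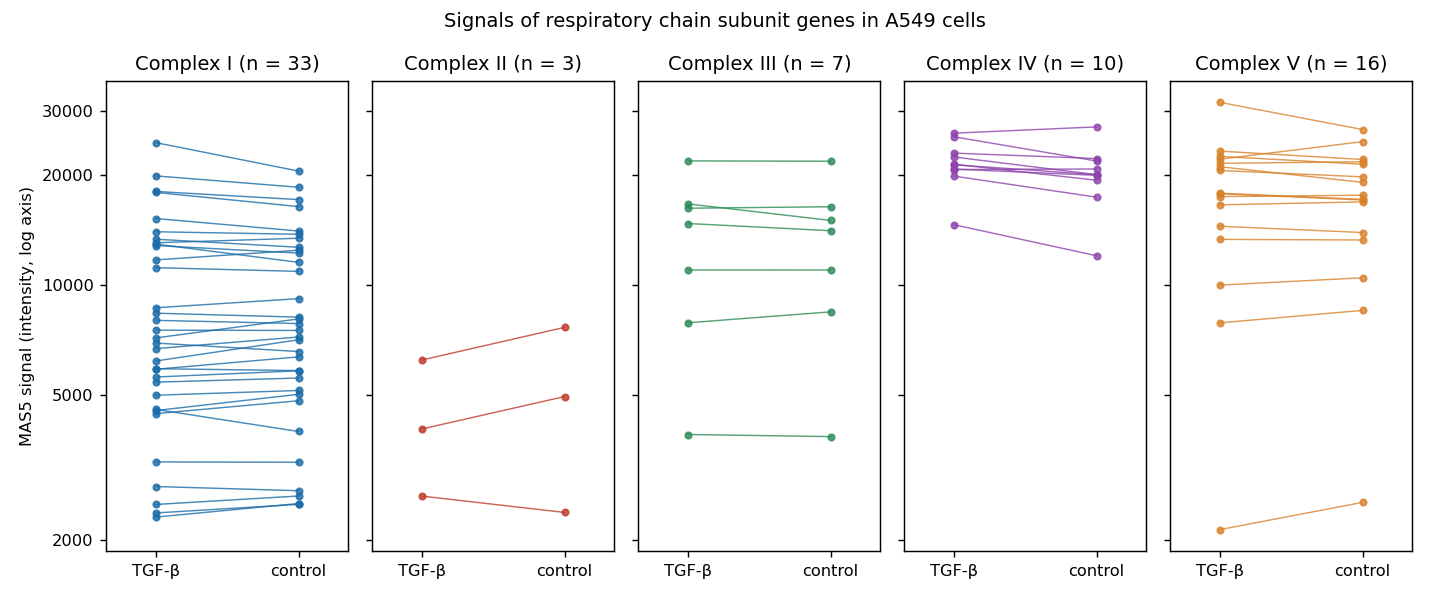
MAS5 signal (intensity, log axis) of 69 subunit genes on the TGF-β array (left of each panel) and the control array (right), 1 line per gene and 1 panel per complex. Most lines are nearly level, and no gene differs by more than 1.23-fold.

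Counted by size, no subunit passed 1.5-fold with TGF-β, with 0 of 69 higher and 0 of 69 lower. Over all 12375 genes, 9.16% passed that size upward and 9.08% downward, and among the 3094 brightest genes 4.46% did so upward and 2.04% downward. At 2-fold the subunit counts were again 0 and 0, against 3.94% higher and 2.96% lower among all genes and 1.87% higher and 0.42% lower among the 3094 brightest. At 1.2-fold, 1 subunit, COX5B, was higher and 2, SDHC and SDHD, were lower. That size was passed upward by 20.3% and downward by 25.4% of all genes, and by 13% upward and 13.4% downward of the 3094 brightest.

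By sign alone, 28 of the 69 subunits (40.6%) were lower with TGF-β, against 54.6% of all genes and 49.3% of the 3094 brightest. This count rests on small ratios and moved with the scaling of the arrays, to 46 with quantile normalization, 43 with loess and 20 with arrays scaled to equal medians. The median of the 69 genes likewise turned to −0.04 with quantile normalization and −0.02 with loess, and was 0.07 with equal medians.

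The ratio moved with brightness, among subunits as among other genes. Of 16 subunits with a mean signal of 5000 to 10000, 11 were lower with TGF-β, at a median log2 ratio of −0.07. The 760 other genes of that range had a median of 0.01, and 47.5% of them were lower. In the other ranges below 20000 the medians were closer. They were −0.078 for subunits and −0.048 for other genes at 2000 to 5000, and 0.045 and 0.043 at 10000 to 15000. At 15000 to 20000 they were 0.065 and 0.062. Of 17 subunits at 20000 or more, 4 were lower, at a median of 0.07. Of 183 other genes at 20000 or more, 6.56% were lower, at a median of 0.16. These other genes reach a mean signal of 43537 and the subunits 29151, so they are not matched in brightness. Against the 500 probe sets nearest in brightness, 45 of the 69 subunits lay below the median of their neighbours, and the median difference over all 69 was −0.03 on the log2 scale.

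**Figure D2:**
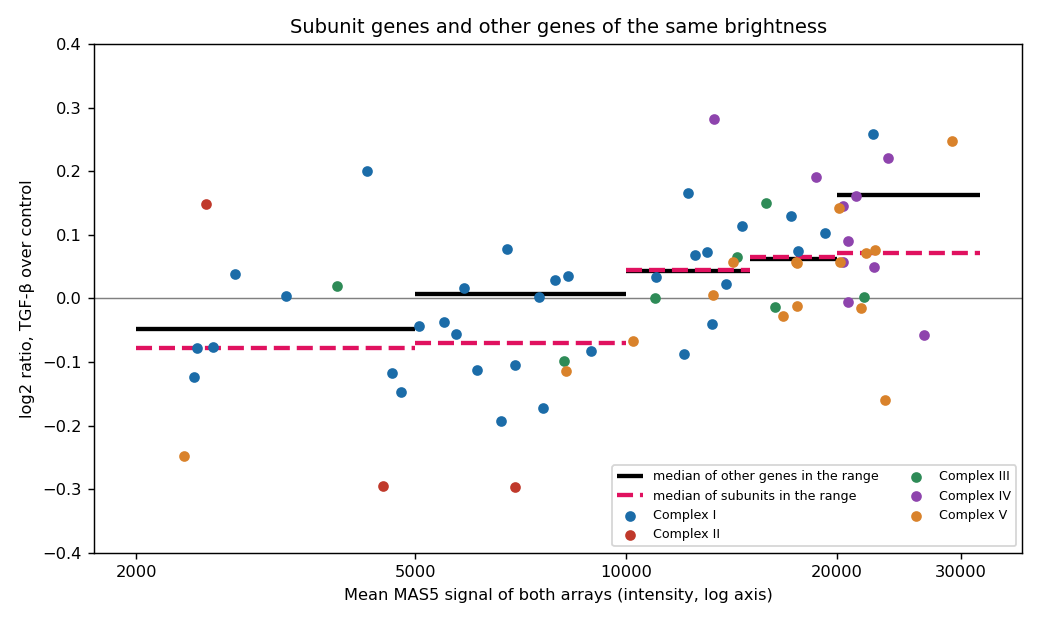
Log2 ratio of TGF-β over control for 69 subunit genes against the mean MAS5 signal of both arrays (intensity, log axis), with points coloured by complex. Horizontal bars give the median of other genes (black) and of subunits (dashed) in 5 ranges of brightness. Above 20000 the subunits' median is 0.07 and that of the other genes, which reach higher signals, 0.16.

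Promoters of subunit genes are known for sites of NRF1, nuclear respiratory factor 1, and of the ETS factor GABP. The RefSeq promoter table of GRCh38.p14, which gives 250 bases before and 50 after each start, listed 60 of the 69 subunit genes. ATP5F1B, ATP5F1D, ATP5MC3, COX6C, CYC1, NDUFB5, NDUFB9, SDHC and UQCRB were not matched. The NRF1 motif, searched on both strands as GCGCA, then any base, then GCGC, stood in 15 of these 60 windows (25%) and in 5.78% of all 35116 promoters. The ETS letters CCGGAAGT, searched on both strands, stood in 9 (15%) of the subunit windows and in 4.14% of all promoters. The 35116 promoters were not limited to genes that reached the filter, so they are not matched to the subunit genes in expression. The shares among expressed genes alone were not counted. The median log2 ratio was 0.02 over the 15 genes with the NRF1 letters and 0.03 over the 45 without them. It was 0.06 over the 9 genes with the ETS letters and 0.02 over the 51 without them, and 0.04 over the 22 with either motif and 0.0018 over the 38 with neither. The ranges overlapped in each of these comparisons.

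The promoters of 3 subunit genes at the ends of the range are shown, with the NRF1 and ETS letters in capitals, 5′ to 3′ on the strand of the gene. COX5B, the subunit with the largest increase, has its window at chr2:97645812-97646111 on the plus strand and holds the ETS letters at 2 places. NDUFB4, with the largest increase in complex I, has its window at chr3:120596086-120596385 on the plus strand and holds the NRF1 letters at 3 places. SDHD, which was lower with TGF-β, has its window at chr11:112086623-112086922 on the plus strand and holds both motifs, the ETS one as its reverse complement.
COX5B: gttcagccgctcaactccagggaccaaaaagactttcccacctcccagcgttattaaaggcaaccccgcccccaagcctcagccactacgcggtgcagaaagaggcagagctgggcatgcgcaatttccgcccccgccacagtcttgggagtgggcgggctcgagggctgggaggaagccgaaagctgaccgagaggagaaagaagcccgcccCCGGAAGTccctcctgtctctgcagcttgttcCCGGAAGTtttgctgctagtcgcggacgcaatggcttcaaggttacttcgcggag
NDUFB4: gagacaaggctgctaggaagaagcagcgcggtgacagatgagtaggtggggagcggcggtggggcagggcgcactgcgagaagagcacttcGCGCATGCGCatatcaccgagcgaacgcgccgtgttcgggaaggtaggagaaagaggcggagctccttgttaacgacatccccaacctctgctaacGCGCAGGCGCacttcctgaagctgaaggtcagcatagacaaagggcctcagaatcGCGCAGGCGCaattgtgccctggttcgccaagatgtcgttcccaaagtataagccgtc
SDHD: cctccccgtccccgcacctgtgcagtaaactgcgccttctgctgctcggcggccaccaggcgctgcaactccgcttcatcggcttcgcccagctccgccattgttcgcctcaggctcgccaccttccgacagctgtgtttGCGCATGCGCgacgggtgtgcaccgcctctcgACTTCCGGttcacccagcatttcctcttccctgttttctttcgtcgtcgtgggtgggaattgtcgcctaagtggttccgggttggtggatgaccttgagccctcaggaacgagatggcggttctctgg
These 3 genes were chosen by their ratios, so the letters in them cannot show whether a motif goes with the ratio. A match is a stretch of letters and not a measured binding site.

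Complex I, the NADH dehydrogenase, gave 33 genes with a median log2 ratio of 0.00, of which 15 were lower with TGF-β. Core and accessory genes differed in the share that was lower. All 5 core genes with a single-symbol probe set were lower with TGF-β, at a median of −0.15, whereas 10 of 28 accessory genes were lower, at a median of 0.03. NDUFV2, an iron-sulfur protein of the NADH-oxidising module, had a signal of 6197 with TGF-β and 7082 in the control, a log2 ratio of −0.19. NDUFS3, of the module that hands electrons to ubiquinone, had 7168 with TGF-β and 8077 in the control (−0.17). NDUFV1, which binds NADH, had 4533 with TGF-β and 5021 in the control (−0.15). NDUFS8, a further core gene, is outside the 5 because its probe sets carry several symbols, and its brightest one was higher, with 12670 with TGF-β and 11722 in the control (0.11).

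The other core genes differed less. NDUFS1, which carries iron-sulfur clusters, had 4446 with TGF-β and 4821 in the control (−0.12), and NDUFS7, next to the ubiquinone site, 2507 with TGF-β and 2644 in the control (−0.08). The 5 genes were lower under equal medians, quantile and loess scaling too, but 3 of 5 were lower when the most changed probe set stood for the gene. The probe sets of NDUFS1 disagreed in sign, as its 4 further ones had log2 ratios of 0.49, −0.46, 0.14 and 0.11. The core genes were also among the dimmer of the complex, with mean signals of 2576 to 7622. Of the 21 genes of complex I under a mean signal of 10000, 13 were lower, against 2 of the 12 brighter ones. Genes other than subunits also were lower less often when brighter. Of these other genes, 58.1% were lower at mean signals of 2000 to 5000 and 47.5% at 5000 to 10000. The share was 39.8% at 10000 to 15000, 30.9% at 15000 to 20000 and 6.56% at 20000 or more.

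Among accessory subunits of complex I the largest increases were in NDUFB4, NDUFA5 and NDUFB2. NDUFB4, of the membrane arm, had a signal of 24540 with TGF-β and 20520 in the control, a log2 ratio of 0.26, and quantile normalization brought this to 0.12. NDUFA5, of the hydrophilic arm, had 4563 with TGF-β and 3971 in the control (0.20). NDUFB2, of the membrane arm, had 12944 with TGF-β and 11539 in the control (0.17), while its dimmest probe set had 144 with TGF-β and 185 in the control. By family, 8 of 11 NDUFB genes were higher with TGF-β, at a median log2 ratio of 0.03, and 7 of 12 NDUFA genes, at 0.01. Of all 12375 genes 5621 were higher, and of the 3094 brightest 1569. At the brightest probe sets, the differences of these accessory subunits were all under 1.2-fold.

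Complex II, succinate dehydrogenase, had the lowest median, −0.29, over 3 genes. SDHA, the flavoprotein that oxidises succinate, had a signal of 2642 with TGF-β and 2384 in the control, a log2 ratio of 0.15. SDHC and SDHD, which anchor the enzyme in the membrane and help to bind ubiquinone, were both lower. SDHD had 4037 with TGF-β and 4950 in the control, a log2 ratio of −0.29, and its other probe set was at background on both arrays.

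The value of SDHC depended on the probe set. Its brightest probe set had 6236 with TGF-β and 7659 in the control, a log2 ratio of −0.30. Its next 3 probe sets, with mean signals of 4188 to 5979, had log2 ratios of 0.01, 0.26 and 0.32 and so were not lower. A pair of dimmer probe sets gave 0.24 and −0.23. The complex II median was therefore 0.13 with the median over probe sets of each gene and 0.15 at the most changed probe set, and only SDHD, through 1 probe set, was lower without conflict.

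**Figure D3:**
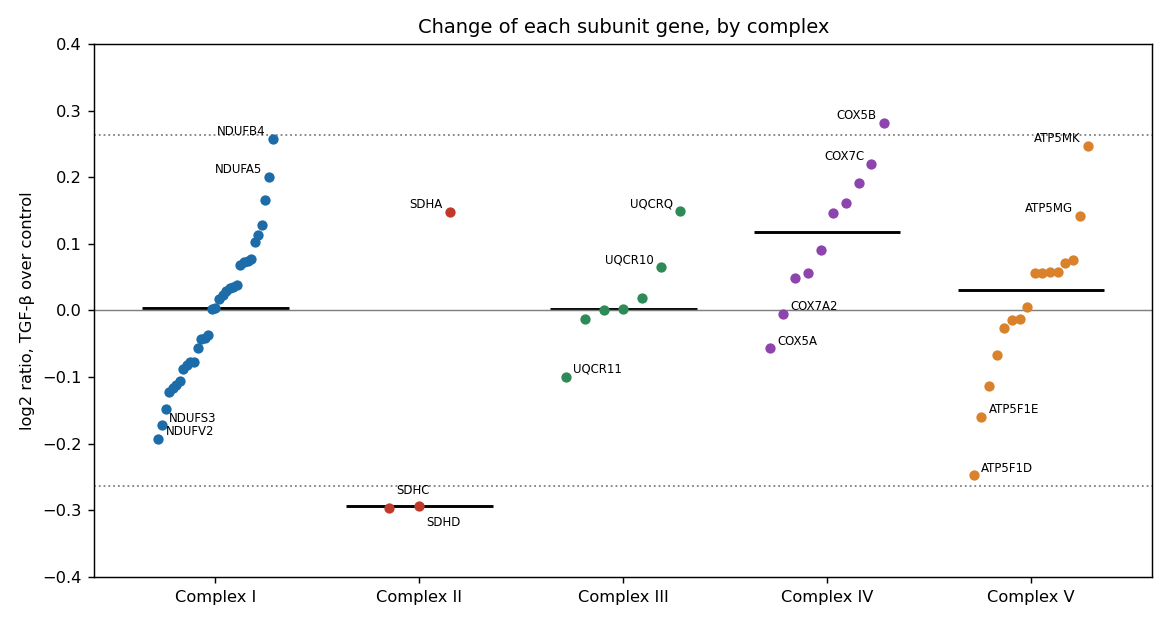
Log2 ratio of TGF-β over control for each of 69 subunit genes, in order within each complex, with a black bar at the median of the complex and dotted lines at 1.2-fold. COX5B lies above the upper dotted line, SDHC and SDHD below the lower one, and the medians run between −0.29 (complex II) and 0.12 (complex IV).

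Complex III, the ubiquinol-cytochrome c reductase, had a median log2 ratio of 0.00 over 7 genes, with 2 lower. CYC1, its heme-bearing cytochrome, had a signal of 16235 with TGF-β and 16386 in the control. The core proteins UQCRC1 and UQCRC2, which carry no redox centre, had 3896 and 10997 with TGF-β, against 3846 and 10994 in the control. The log2 ratios of these 3 genes were thus near 0, although a second probe set of UQCRC2 had 8591 with TGF-β and 7243 in the control (0.25). Of the small subunits, UQCRQ had 16678 with TGF-β and 15034 in the control (0.15), and UQCR10 had 14741 with TGF-β and 14088 in the control (0.07). UQCR11 had 7884 with TGF-β and 8445 in the control (−0.10), and a dimmer probe set had 538 with TGF-β and 831 in the control, 1.54-fold lower.

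Complex IV, cytochrome c oxidase, had the highest median, 0.12, over 10 genes, with 2 lower. Its median stayed above 0 under each of 11 alternatives, between 0.02 and 0.17. The alternatives of filter, floor, offset and symbol could hardly move it, because these genes are far above background. The range comes from those of scaling and probe set. All 10 genes had mean signals of 13328 or more, and the median of their neighbours in brightness was also 0.12, so the excess over genes of the same brightness was −0.01. COX5B, a zinc-binding subunit on the matrix side, had a signal of 14627 with TGF-β and 12030 in the control, a log2 ratio of 0.28. Its other 3 probe sets had log2 ratios of −0.02, −0.01 and −0.04, so the 1.2-fold difference was seen at 1 probe set of 4.

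The other large increases in complex IV were in COX7C and COX8A, small subunits of the membrane part. COX7C had 25472 with TGF-β and 21861 in the control (0.22), and its other probe sets gave 0.14 and 0.05. COX8A had 19876 with TGF-β and 17405 in the control (0.19). COX4I1, the general form of subunit 4, had 21423 with TGF-β and 19365 in the control (0.15). The lower genes were COX5A, with 26062 with TGF-β and 27112 in the control (−0.06), and COX7A2, with 20722 with TGF-β and 20792 in the control (−0.0049). The ubiquitous COX6A1, COX6B1 and COX7B had log2 ratios of 0.16, 0.09 and 0.05.

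Complex V had a median log2 ratio of 0.03 over 16 genes, with 7 lower, and its median was −0.07 with quantile normalization and −0.03 with loess. The subunits of the catalytic head were nearly level. ATP5F1A, subunit alpha, had a signal of 23270 with TGF-β and 22074 in the control, and ATP5F1B, the catalytic subunit beta, had 20594 with TGF-β and 19788 in the control. ATP5F1C, the rotating subunit gamma, had 22512 with TGF-β and 21426 in the control. The lower genes included the other subunits of the central stalk: ATP5F1D had 2140 with TGF-β and 2540 in the control (−0.25), and ATP5F1E had 22118 with TGF-β and 24706 in the control (−0.16). A second probe set of each was also lower, at −0.15 for ATP5F1D and −0.29 for ATP5F1E.

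In the membrane part of complex V, ATP5MK, a small subunit of the ATP synthase dimer, had the largest increase, with 31642 with TGF-β and 26659 in the control (0.25). Quantile normalization brought this to 0.07. ATP5MG, subunit g, had 21088 with TGF-β and 19110 in the control (0.14), and 2 more of its probe sets gave 0.14 and 0.12, but its dimmest gave −0.22. ATP5MC1, ATP5MC2 and ATP5MC3 encode the same mature subunit c with different leader peptides. ATP5MC1 had 7880 with TGF-β and 8524 in the control (−0.11), ATP5MC2 17846 with TGF-β and 17165 in the control (0.06), and ATP5MC3 21545 with TGF-β and 21762 in the control (−0.01). The probe sets of ATP5MC3 disagreed in sign, as one of nearly the same brightness had a log2 ratio of 0.16 and a dim one −0.43.

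Of all 84 members that reached the filter, 3 were at least 1.5-fold higher with TGF-β (NDUFV1-DT, COX4I2 and COX6A2), 2 of these at least 2-fold, and 0 passed 1.5-fold downward. Over all genes the shares were 9.16% at least 1.5-fold higher, 3.94% at least 2-fold higher and 9.08% at least 1.5-fold lower. COX4I2 and COX6A2 were under the filter value of 48.7 in the control and reached the filter through the TGF-β array alone, so the count supports nothing about the members. None of the 3 encodes a subunit of the general form. NDUFV1-DT, a transcript that starts beside NDUFV1 and runs away from it, had a signal of 234 with TGF-β and 82.5 in the control, 2.84-fold higher. Both signals were above background, the highest signal of 27 probe sets for Bacillus subtilis, which was 56.6 on the TGF-β array and 45.8 on the control array.

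NDUFV1 and NDUFV1-DT start 230 bases apart, and the windows of both are shown because they share 271 bases, read on opposite strands. That of NDUFV1 is chr11:67606686-67606985 on the plus strand and that of NDUFV1-DT chr11:67606657-67606956 on the minus strand, both 5′ to 3′ in GRCh38.p14.
NDUFV1: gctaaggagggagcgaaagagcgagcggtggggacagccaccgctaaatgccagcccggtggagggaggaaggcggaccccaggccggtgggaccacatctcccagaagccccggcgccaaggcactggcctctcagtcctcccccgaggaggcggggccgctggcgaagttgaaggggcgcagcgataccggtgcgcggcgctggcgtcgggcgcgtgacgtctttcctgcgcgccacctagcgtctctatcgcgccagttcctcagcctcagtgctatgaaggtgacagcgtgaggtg
NDUFV1-DT: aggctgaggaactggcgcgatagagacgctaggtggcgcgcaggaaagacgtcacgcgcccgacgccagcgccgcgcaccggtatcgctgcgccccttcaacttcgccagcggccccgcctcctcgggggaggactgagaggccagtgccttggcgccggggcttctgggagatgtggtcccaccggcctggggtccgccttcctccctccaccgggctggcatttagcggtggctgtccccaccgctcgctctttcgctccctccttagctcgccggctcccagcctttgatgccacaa
Neither window holds the NRF1 or ETS letters. The brightest NDUFV1 probe set was lower with TGF-β, as given above. A second, dim probe set of NDUFV1 had a signal of 91.5 with TGF-β and 15.6 in the control, where the control was at background. It reached the filter value of 48.7 through the TGF-β array alone. Its signal with TGF-β was 1.996-fold the background level of the control array. Log2 ratios of the 500 probe sets nearest in brightness spread widely (scaled median absolute deviation 0.78), so this is no firm minimum.

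COX4I2, the form of subunit 4 known from lung and from low oxygen, had a signal of 149 with TGF-β and 46.3 in the control, 3.23-fold higher, with the control just above its background of 45.8. With an offset of 50 added to each signal its log2 ratio was 1.05 in place of 1.69. COX6A2, the heart and muscle form of COX6A1, had 77.4 with TGF-β and 40.4 in the control. The control was at background, and the signal of COX6A2 with TGF-β was 1.69-fold the background level of the control array. Log2 ratios of probe sets of that brightness spread widely (scaled median absolute deviation 0.71), so this is no firm minimum. These isoforms were each measured by 1 dim probe set, while their general forms COX4I1 and COX6A1 had log2 ratios of 0.15 and 0.16.

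The remaining isoforms were at background on both arrays: COX7A1 of heart and muscle, and the testis forms COX6B2, COX7B2 and COX8C. NDUFV2-AS1, the pseudogene COX6A1P1 and the ATP5MF probe set with a single symbol were at background on both arrays as well. These 7 genes did not reach the filter. NDUFB2-AS1 had 76.8 with TGF-β and 84.2 in the control. The pseudogene ATP5MC2P1, whose probes may read its parent gene, had 195 with TGF-β and 290 in the control, 1.49-fold lower, just inside the limit of 1.5-fold.

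**Figure D4:**
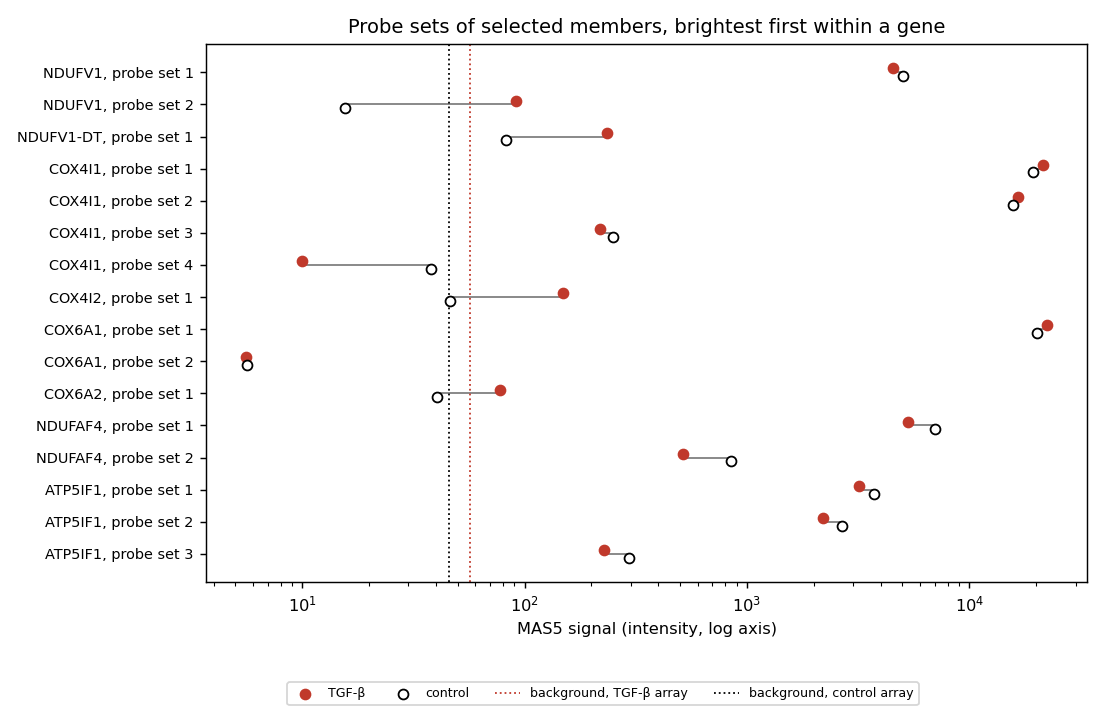
MAS5 signal (intensity, log axis) with TGF-β (filled) and in the control (open) at each probe set of 8 members, brightest first within a gene; dotted lines mark the background of each array. NDUFV1-DT (234 with TGF-β, 82.5 in the control) and COX4I2 (149 with TGF-β, 46.3 in the control) are wide apart, whereas the bright sets of COX4I1 and COX6A1 are close together.

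The 8 NDUFAF genes, which help to assemble complex I, had a median log2 ratio of −0.08. Of the 8, 6 (75%) were lower, against 54.6% of all genes. At least 1.2-fold lower were 2 of the 8, where 25.4% of all genes were. NDUFAF4 had a signal of 5282 with TGF-β and 7019 in the control, 1.33-fold lower, and its second probe set had 514 with TGF-β and 845 in the control, 1.64-fold lower. NDUFAF5 had 1427 with TGF-β and 1761 in the control, 1.23-fold lower, and its next probe set had a log2 ratio of −0.27. ATP5IF1, which blocks ATP hydrolysis by complex V, was lower at each of 3 probe sets, with 3198, 2206 and 227 with TGF-β, against 3725, 2685 and 295 in the control. COX7A2L, which links complexes III and IV, had 8108 with TGF-β and 7775 in the control.

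Several genes have a dim probe set next to the bright one, and the pair often differed. For 33 subunits with at least 2 probe sets above background on both arrays, the dimmest had a lower ratio than the brightest in 24 (72.7%), against 53.6% of 5610 genes. The median difference was −0.14 on the log2 scale for subunits and −0.03 for all genes. Where the brightest signal was at least 20 times the dimmest, the counts were 14 of 20 subunits (70%) and 461 of 804 genes (57.3%). COX7B had 236 with TGF-β and 334 in the control at its dim probe set (−0.50), against 0.05 at the bright one. COX5A had 490 with TGF-β and 663 in the control at its dim probe set (−0.44). Which transcripts the dim probe sets read was not tested.

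Of 13 subunits encoded in mitochondrial DNA, 7 were measured and 2 of these (28.6%) were lower, against 54.6% of all genes. The median of their neighbours in brightness was 0.15, and their own median log2 ratio was 0.08. This median turned to −0.05 with quantile normalization and to −0.01 with loess. COX2 (MT-CO2), which binds cytochrome c, had a signal of 43212 with TGF-β and 38828 in the control (0.15, and −0.04 with quantile normalization). COX1 (MT-CO1), the catalytic subunit of complex IV, had 26530 with TGF-β and 24436 in the control (0.12). COX3 (MT-CO3) had 3014 with TGF-β and 3465 in the control (−0.20).

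Genes that make, supply or regulate the chain had lower medians than the subunits themselves. Of 53 assembly factors, 41 (77.4%) were lower with TGF-β, against 54.6% of all genes, at a median log2 ratio of −0.18. The 8 NDUFAF genes are among them. LYRM7, a chaperone of the complex III iron-sulfur protein, had 1460 with TGF-β and 2223 in the control, 1.52-fold lower. The increase was largest in COX19, with 76.3 with TGF-β and 57.7 in the control, both near background. SDHAF3, SDHAF1 and SDHAF4, assembly factors of complex II, had log2 ratios of −0.56, −0.50 and −0.31, and SDHAF2 had 0.11. Of the 53, 2 were at least 1.5-fold lower and 0 at least 1.5-fold higher, shares below the 9.08% and 9.16% of all genes; the second of these 2, UQCC2, was at background with TGF-β.

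Of 19 genes for electron carriers and ubiquinone synthesis, 16 (84.2%) were lower, against 54.6% of all genes, at a median of −0.27. This median was −0.14 with the median over the probe sets of each gene and −0.13 without probe sets that share targets. DHODH, which passes electrons from pyrimidine synthesis to ubiquinone, had 257 with TGF-β and 457 in the control, 1.78-fold lower. PDSS1, which makes the ubiquinone side chain, had 1687 with TGF-β and 2687 in the control (−0.67). COQ8A, which is needed for ubiquinone synthesis, had 502 with TGF-β and 781 in the control (−0.64). Cytochrome c itself, CYCS, had 26295 with TGF-β and 26935 in the control (−0.03), and the largest increase, in COQ10B, was 1704 with TGF-β against 1621 in the control (0.07).

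In the citric acid cycle and pyruvate entry, 16 of 24 genes (66.7%) were lower, against 54.6% of all genes, at a median of −0.13. PDK4, a kinase that shuts pyruvate dehydrogenase off, had 601 with TGF-β and 2356 in the control, 3.92-fold lower and 1 of the 2.96% of genes that were at least 2-fold lower. PDP1, the phosphatase that turns the same enzyme on, had 709 with TGF-β and 483 in the control, 1.47-fold higher. The enzyme's own subunits had smaller ratios, with log2 values of 0.05 for PDHA1, −0.18 for PDHB and −0.23 for DLAT. Those of PDHX and DLD were −0.29 and −0.07.

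The mitochondrial ribosome translates the subunits encoded in mitochondrial DNA. Of its 75 genes, 65 (86.7%) were lower, against 54.6% of all genes, at a median of −0.15. None was 1.5-fold changed, against 9.16% of all genes upward and 9.08% downward. MRPL34 had 1447 with TGF-β and 2032 in the control (−0.49), and MRPL49 had 3350 with TGF-β and 2848 in the control (0.23). The cytosolic ribosome, a set of bright genes, had 5 of 60 genes (8.33%) lower, against 54.6% of all genes. Its median was 0.16, and 0.00 with quantile normalization. The median of its neighbours in brightness was 0.15. RPS15A had 30092 with TGF-β and 24855 in the control (0.28), and RPLP2, through a dim probe set, 146 with TGF-β and 243 in the control (−0.74).

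Of 23 regulators of mitochondrial biogenesis, 20 (87.0%) were lower, against 54.6% of all genes, at a median of −0.24. TFB1M, a methyltransferase of mitochondrial ribosomal RNA, had 462 with TGF-β and 774 in the control, 1.67-fold lower. PPARGC1A, a coactivator of mitochondrial genes, had 347 with TGF-β and 518 in the control (−0.58), and TFAM, which packages mitochondrial DNA, had 4603 with TGF-β and 5424 in the control (−0.24). NRF1 had 359 with TGF-β and 438 in the control (−0.28), and GABPA, the DNA-binding part of GABP, had 902 with TGF-β and 937 in the control (−0.05). HIF1A, an oxygen-regulated transcription factor, had 20325 with TGF-β and 18068 in the control (0.17). Among 14 carriers and antioxidants 7 (50%) were lower, against 54.6% of all genes, at a median of 0.00. TXNRD2 had 183 with TGF-β and 263 in the control (−0.52). The porin VDAC2 had 23471 with TGF-β and 20838 in the control (0.17).

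**Figure D5:**
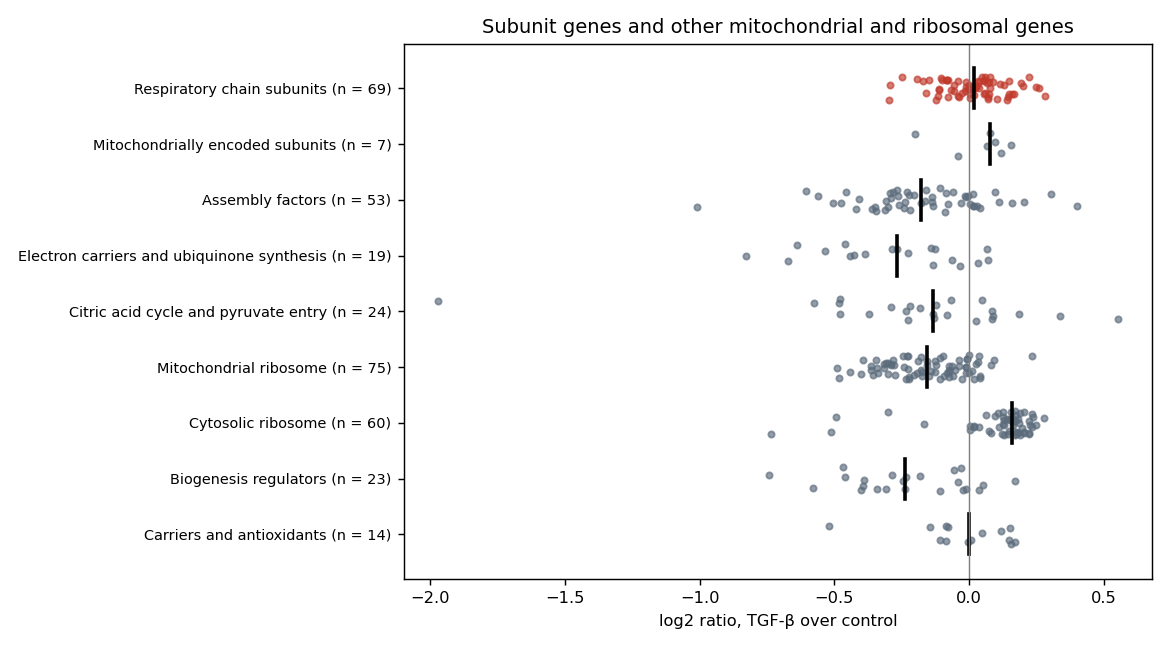
Log2 ratio of TGF-β over control for the 69 subunit genes (red) and the genes of 8 lists (grey), 1 point per gene, with a black bar at each median. The subunits lie between −0.30 and 0.28, and the medians of assembly factors (−0.18), ubiquinone genes (−0.27), the mitochondrial ribosome (−0.15) and biogenesis regulators (−0.24) lie to the left of theirs.

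These lists are dimmer than the subunits, and brightness moved with the ratio. The medians of their neighbours in brightness were −0.04 for assembly factors, −0.05 for ubiquinone genes, −0.03 for citric acid cycle genes, −0.03 for the mitochondrial ribosome and −0.04 for biogenesis regulators. The medians of these 5 lists were below 0 under each of 11 alternatives, with the highest values at −0.13, −0.13, −0.08, −0.11 and −0.13 in the same order. Whether the subunits and these lists differ beyond the variation between cultures could not be tested with 1 array per condition.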

How the data were processed

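RNA of A549 cells treated with TGF-β and of control A549 cells was hybridized, 1 Affymetrix array per condition. The authors deposited MAS5 intensities on a linear scale; no MAS5 version or further setting is given in the sources used here. Fold changes were computed with Python 3.11.15, numpy 2.4.6, pandas 2.3.3 and statsmodels 0.14.6 and plotted with matplotlib 3.10.9, without further scaling. Probe sets with 1 gene symbol in the platform annotation were used, and 0 members changed symbol against RefSeq GRCh38.p14. Genes whose mean signal reached the median over probe sets (48.7) were kept. Precision is limited by having 2 arrays.

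The members and lists were chosen with earlier results of these data known. Named were members changed at least 1.5-fold, catalytic core genes, members with tissue paralogues, members below the filter, and the largest rises and falls of each complex and list; further genes of the lists were named after their values were seen. The 1.2-fold limit, the comparison by brightness and that of probe sets of 1 gene were added after the values had been seen. Alternatives were no filter, a stricter filter at a mean signal of 349, a floor at the background level and an offset of 50. Others were equal medians, quantile or loess scaling (span 0.3). As the probe set of a gene they took the most changed one, the median over all, or the brightest without shared targets. Names that end in _s_at, _x_at or _a_at were taken to mark shared targets. A last alternative applied the symbol rule to current symbols, which changed no member. A 2-fold cut and a loess fit were tried on simulated log2 ratios, but the full calculation was not run on simulated data.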

Additional observations from a re-analysis of the deposited data

How the results depend on the processing

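With 1 array per condition no replicate could be left out, and no paired analysis was possible because each condition has 1 array. Complex IV kept a median above 0 under each of 11 alternatives, of which those of filter, floor, offset and symbol could hardly move it. The median log2 ratio of the subunits was −0.038 over 69 genes with quantile normalization and −0.038 over the 53 genes left without probe sets that share targets. Complex II had 0.15 at the most changed probe set, 0.13 with the median over probe sets and −0.028 without shared targets. Complex III had −0.070 with quantile normalization. Complex V had −0.069 with quantile normalization, −0.032 with loess, −0.092 at the most changed probe set and −0.066 without shared targets. Of subunits, 46 were lower with quantile normalization and 43 with loess, where 28 of 69 were lower without them. At 1.5-fold, 2 subunits were higher at the most changed probe set and 1 with the median over probe sets, while 1 was lower with no filter, 3 at the most changed probe set and 2 without shared targets. At 2-fold, 1 subunit, NDUFV1 through its dim probe set, was higher both at the most changed probe set and with the median over probe sets. That probe set reached the filter through the TGF-β array alone, so this count supports nothing about the subunits. Of all genes, 3373 were at least 1.5-fold higher with no filter and 483 with the stricter filter. At least 1.5-fold lower were 3798 with no filter, 305 with the stricter filter, 657 with the offset of 50 and 1844 at the most changed probe set. At least 2-fold higher were 2110 with no filter, 197 with the stricter filter and 295 with the offset. At least 2-fold lower were 2395 with no filter, 63 with the stricter filter, 134 with the offset, 204 with the floor and 596 at the most changed probe set. Another filter changes by construction how many genes enter, and for the other shifts the cause was not tested. Mitochondrially encoded subunits had −0.049 with quantile normalization and −0.0063 with loess, the cytosolic ribosome −0.0026 with quantile normalization, and carriers and antioxidants −0.050 without shared targets.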

Other observations

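Some subunit genes are read by probe sets that carry several symbols and were left out of all counts. The probe set of NDUFC2, a complex I subunit, that it shares with a readthrough transcript had a signal of 14099 with TGF-β and 12726 in the control, a log2 ratio of 0.15. UQCRH, the hinge protein of complex III, shares a probe set with UQCRHL, which had 21328 with TGF-β and 19079 in the control (0.16). The bright probe set of ATP5MF, a membrane subunit of complex V, had 14067 with TGF-β and 12895 in the control (0.13). NDUFS8, an iron-sulfur protein of the complex I core, was read by 3 probe sets that disagree in sign, with 12670, 4582 and 470 with TGF-β, against 11722, 5602 and 503 in the control, and log2 ratios of 0.11, −0.29 and −0.10. NDUFS5, which shares its probe set with RPL10, had 19052 with TGF-β and 17865 in the control (0.09). A probe set shared by NDUFS3 and PTPMT1 had 2334 with TGF-β and 2680 in the control (−0.20).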
